A study of Mus musculus with 6 samples.

Results

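The tumour necrosis factor (TNF) superfamily consists of trimeric ligands, carried on the cell surface or shed, and the receptors that bind them. It was followed across 3 gates of mouse thymic epithelial cells (TEC), which form much of the stroma in which T cells develop and are selected. Members were taken by name: every gene whose symbol starts with Tnfsf or Tnfrsf, plus Tnf, Lta, Ltb, Ltbr, Fas, Fasl, Cd40, Cd40lg, Cd27, Cd70, Eda, Edar, Eda2r and Ngfr. The array carried 45 such genes with 64 probes, out of 28032 genes with 41174 probes, and the naming rule uses no measured value. Of these, 41 members, with 51 probes, were measured well enough to be tested, out of 18221 genes tested in all. Each group is CD45- EpCAM+ TEC from C57BL/6 mice aged 4 weeks that carry the Meis1-EGFP BAC transgene [Tg(Meis1-EGFP)FO156Gsat/Mmcd], in which a large genomic clone around Meis1 drives green fluorescent protein. Meis1-high cells were sorted as EGFPhigh FSClow, Meis1-low cells as EGFPint FSChigh and Meis1-negative cells as EGFP- FSClow, so that the gates differ in forward scatter, a measure of cell size, as well as in EGFP. All 3 gates carry the reporter, no group lacks it, and EGFP stands for the transgene and not for Meis1 protein. There were 2 arrays a gate, each from a pool of 6 mice and from 10 ng of RNA amplified before labelling with Cy3. The labels do not say whether the pools of different arrays held separate mice, so p-values measure the spread between these arrays, which may be partly technical.

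In the thymus this family carries much of the talk between lymphocytes and TEC. RANK ligand, CD40 ligand and lymphotoxin, made largely by developing T cells and innate lymphoid cells, bind RANK, CD40 and the lymphotoxin beta receptor on TEC. Those receptors recruit TRAF adaptors and switch on the NF-kB transcription factors, by the classical and by the NIK-dependent arm, and drive medullary TEC to mature and to express Aire. Other members signal death through a death domain (Fas, TNFR1, the TRAIL receptor), costimulate T cells (CD27, 4-1BB, OX40), keep B cells alive (BAFF and its receptors) or shape skin appendages (ectodysplasin).

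Levels are log2 signals of the probe that represents a gene, relative to the array's 75th percentile, which is 0. They may be compared between arrays for 1 probe and not between probes. The 75th percentile lay at signals of 73.3 to 165.2, and 53.1% to 69.6% of spots were well above background, a mark the scanner software sets at 13 times the SD of the background. The correlation between the 2 arrays of a gate was 0.904 for Meis1-high, 0.921 for Meis1-low and 0.839 for Meis1-negative. Replicate 1 of the 3 gates shared 1 slide and scan and replicate 2 another, so each slide holds 1 array of every gate. Meis1 itself stood at 0.24 and 0.12 in the Meis1-high pair, -2.35 and -1.61 in the Meis1-low pair, and -3.20 and -0.99 in the Meis1-negative pair. Meis1-high lay above both other gates, which overlapped each other. One array stood apart. On Meis1-negative replicate 1 the summed signal of 17 thymocyte and T cell markers was 1203 times the 75th percentile, against 27.6 on replicate 2 and 10.2 to 14.5 on the other 4 arrays, although the sort was for CD45- cells. Its epithelial marker sum was the lowest, 51.5 against 185 to 469 elsewhere, with all 9 epithelial markers well above background on every array. Differences from Meis1-negative are therefore followed by the value without that array where they are large or rest on it. Replicate 2, which then stands for the gate, also carried leukocyte signal. The sum of 10 pan-leukocyte markers was 135 and 61.4 in the Meis1-negative pair, against 21.4 to 44.4 on the other 4 arrays. Ptprc, which encodes CD45, read -0.69 and 0.37 for Meis1-high, -1.0 and 0.43 for Meis1-low and 5.16 and 3.17 for Meis1-negative. Not all 10 were raised, for Vav1 on replicate 2, at -0.16, lay under both Meis1-high arrays. What leukocyte RNA adds to values without replicate 1 was not tested. In sorted bulk samples, fewer cells of a type and less RNA per cell cannot be told apart.

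No member passed an adjusted p of 0.05 in any of the 3 comparisons (limma, Benjamini-Hochberg over all 18221 genes), and neither did any other gene, a background of 0%. The smallest adjusted p of a member was 0.250 for Meis1-high against Meis1-low. Against Meis1-negative it was 0.307 for Meis1-high and 0.557 for Meis1-low. Values are therefore given as differences with their standard errors, and none of them stands as a called change.

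Between Meis1-high and Meis1-low, 27 of the 41 members had the lower mean in Meis1-high and 14 the higher, with a median difference of -0.63 against -0.15 over all genes. In 20 members (48.8%) both Meis1-high arrays lay under both Meis1-low arrays, against 31% of all genes. The opposite held in 6 members (14.6%), against 22.7% of all genes. An unadjusted p under 0.05 was reached by 10 members in the lower direction (24.4%, against 8.25% of all genes) and by 1 in the higher (2.44%, against 4.69%). The members' median was -0.34 on slide 1 and -0.59 on slide 2. Among the 23 members well above background on all 6 arrays it was -0.55. Of 14 ligands 10 had the lower mean in Meis1-high, of 24 signalling receptors 15, and of 3 decoy receptors 2. These counts describe the tested members and not all 45, and 9 of the 41 entered the test through a single gate, the only one with both arrays well above background: Cd40lg, Eda, Tnfrsf19, Tnfrsf23, Tnfrsf26, Tnfsf11, Tnfsf13b, Tnfsf15 and Tnfsf9.

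**Figure D1:**
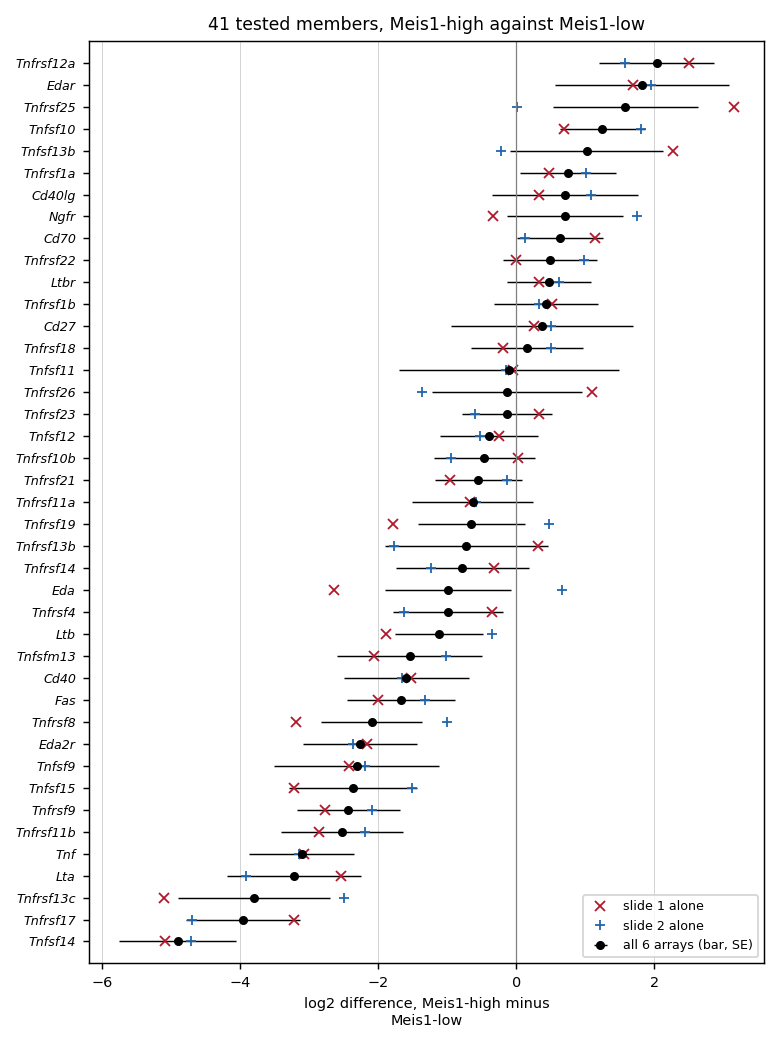
Difference in log2 level between Meis1-high and Meis1-low for the 41 tested members (x axis), with the standard error of the fit as a bar and the difference on each slide as crosses; members on the y axis are ordered by the difference. Of the 41 points 27 lie left of 0, from Tnfsf14 at the bottom, and Tnfrsf12a at 2.04 lies highest. For Tnfsf14 neither Meis1-high array was well above background, and only a bound is given, which does not hold with normexp background correction.

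Among the members that act on medullary TEC, the receptor RANK (Tnfrsf11a) and the decoy receptor of its ligand both lay lower in Meis1-high than in Meis1-low on both slides, and whether the 2 genes differed in this was not tested. Tnfrsf11a stood at 4.33 and 4.87 for Meis1-high, 5.0 and 5.46 for Meis1-low and 2.85 and 5.28 for Meis1-negative. Apart from Meis1-negative replicate 1 the arrays lay close together, and the difference of Meis1-high from Meis1-low was -0.63 ± 0.88 (limma adjusted p = 0.800), with -0.67 on slide 1 and -0.59 on slide 2. A second, dimmer probe of Tnfrsf11a gave 0.59, with the opposite sign. Osteoprotegerin (Tnfrsf11b), which soaks up RANK ligand before it can reach RANK, had levels of -0.82 and 0.47 (Meis1-high), 2.04 and 2.67 (Meis1-low) and -0.44 and 1.71 (Meis1-negative). Both Meis1-low arrays lay above both Meis1-high arrays. The difference was -2.53 ± 0.89, or 5.77-fold in favour of Meis1-low (limma adjusted p = 0.313), and it was -2.86 on slide 1 and -2.20 on slide 2. RANK ligand (Tnfsf11), in the thymus a product of lymphocytes, gave -3.43 and -4.30 in the Meis1-high pair, -3.38 and -4.15 in the Meis1-low pair, and 1.72 and -3.86 in the Meis1-negative pair. Meis1-negative replicate 1 stood far above the other 5 arrays, and no Meis1-high array was well above background. Meis1-high differed from Meis1-negative by -2.79 ± 1.59 (limma adjusted p = 0.604), at least 5.85-fold lower. Without that array the difference was -0.0018 and no bound remained. Here and in what follows, a bound sets the bright gate's mean against the lowest signal well above background on each array of the dim gate, or the dim probe's own where that is higher.

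CD40, the receptor through which CD40 ligand prompts medullary TEC to divide and mature, separated the 2 reporter-positive gates on both slides. Cd40 stood at -1.67 and -2.12 for Meis1-high, -0.14 and -0.46 for Meis1-low and -2.87 and -0.24 for Meis1-negative. Meis1-low exceeded Meis1-high on each slide, and the 2 Meis1-negative arrays lay far apart. The difference of Meis1-high from Meis1-low was -1.60 ± 0.91 (limma adjusted p = 0.513), with -1.53 on slide 1 and -1.66 on slide 2. CD40 ligand (Cd40lg), a surface protein of activated T cells, had levels of -4.81 and -5.30 (Meis1-high), -5.14 and -6.38 (Meis1-low) and -1.0 and -4.13 (Meis1-negative), and only the Meis1-negative arrays were well above background. Meis1-low differed from Meis1-negative by -3.20 ± 1.06 (limma adjusted p = 0.608), at least 3.20-fold lower. Without Meis1-negative replicate 1 this was -1.64, with a bound of 1.08-fold. With normexp background correction, which adds an offset to each signal, it was -0.07, and neither bound holds in that setting. Meis1-high differed from Meis1-negative by -2.49, at least 2.08-fold lower, but by -0.93 without replicate 1, when no bound remained.

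In the lymphotoxin branch, the ligands Tnfsf14, Lta, Ltb and Tnf each lay lower on both Meis1-high arrays than on both Meis1-low arrays. LIGHT (Tnfsf14), a ligand of both the lymphotoxin beta receptor and HVEM, was measured at -5.42 and -6.24 in the Meis1-high pair, -0.32 and -1.53 in the Meis1-low pair, and -1.55 and -3.44 in the Meis1-negative pair. Neither Meis1-high array was well above background, and both arrays of each other gate were. Meis1-high differed from Meis1-low by -4.91 ± 0.85 (limma adjusted p = 0.250), which as a bound is at least 6.50-fold lower, and the slides gave -5.10 on slide 1 and -4.72 on slide 2. With normexp background correction it was -1.14, so that the bound does not hold in that setting. From Meis1-negative it differed by -3.34 ± 0.85 (limma adjusted p = 0.307), at least 2.18-fold lower. That became -2.39 and at least 1.14-fold without Meis1-negative replicate 1. With normexp it was -0.26, where neither of these bounds holds. HVEM (Tnfrsf14), the other receptor of LIGHT, ran -1.40 and -2.27 for Meis1-high, -1.08 and -1.03 for Meis1-low and -5.90 and -3.06 for Meis1-negative. Here the Meis1-negative gate was the low one, with 1 of its 2 arrays well above background. Differences from Meis1-negative were 2.64 ± 0.97 for Meis1-high and 3.42 ± 0.97 for Meis1-low (limma adjusted p = 0.419 and 0.557), and 1.22 and 2.0 without replicate 1. A second tested probe gave smaller differences of 0.89 and 1.19, or 0.16 and 0.46 without that array.

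Lymphotoxin alpha (Lta), a secreted ligand that also joins lymphotoxin beta in a membrane heterotrimer, was measured at -1.39 and -3.88 (Meis1-high), 1.15 and 0.04 (Meis1-low) and -1.39 and -0.12 (Meis1-negative). Both Meis1-high arrays, 1 of them well above background, lay under both Meis1-low arrays. The difference was -3.22 ± 0.97 (limma adjusted p = 0.279), and -1.53 with normexp background correction. Lymphotoxin beta (Ltb), the membrane anchor of that heterotrimer, was well above background on every array, at -0.23 and 0.53 in the Meis1-high pair, 1.65 and 0.88 in the Meis1-low pair, and 1.74 and 1.59 in the Meis1-negative pair. Meis1-high was the low gate, by -1.12 ± 0.64 against Meis1-low and -1.51 ± 0.64 against Meis1-negative (limma adjusted p = 0.516 and 0.469), the latter -1.44 without Meis1-negative replicate 1. TNF itself (Tnf), the inflammatory cytokine that gives the family its name, had -4.11 and -2.81 for Meis1-high, -1.04 and 0.33 for Meis1-low and -0.84 and -0.45 for Meis1-negative. Both Meis1-high arrays, 1 of them well above background, lay under the 4 others. The differences were -3.11 ± 0.76 from Meis1-low, with -3.07 on slide 1 and -3.14 on slide 2, and -2.82 ± 0.76 from Meis1-negative (limma adjusted p = 0.253 and 0.330). The latter was -3.01 without Meis1-negative replicate 1 and -0.76 with normexp. The difference from Meis1-low ran from -3.79 to -0.91 over all alternative settings.

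For the receptors of these ligands, the estimated differences between Meis1-high and Meis1-low were under 1 in size. The lymphotoxin beta receptor (Ltbr) had 1.35 and 1.0 (Meis1-high), 1.03 and 0.37 (Meis1-low) and 0.10 and 0.27 (Meis1-negative). Meis1-high and Meis1-low overlapped, at 0.48 ± 0.61 (limma adjusted p = 0.779). TNFR1 (Tnfrsf1a), the widely expressed death domain receptor of TNF, read 1.94 and 1.47 in the Meis1-high pair, 1.46 and 0.45 in the Meis1-low pair, and 1.37 and 0.41 in the Meis1-negative pair, a difference between Meis1-high and Meis1-low of 0.75 ± 0.69 (limma adjusted p = 0.696). Whether the ligands differed more than their receptors was not tested. TNFR2 (Tnfrsf1b), the TNF receptor without a death domain, depended on the probe. The brighter one gave -2.54 and -1.54 for Meis1-high, -3.06 and -1.87 for Meis1-low and -2.29 and -1.30 for Meis1-negative, with overlap in all 3 comparisons. The other gave -4.06 and -3.5 (Meis1-high), -3.84 and -2.12 (Meis1-low) and 0.51 and -0.34 (Meis1-negative), which set Meis1-negative apart, by -3.86 for Meis1-high against -0.24 for the brighter probe (-3.44 and -0.74 without Meis1-negative replicate 1). The opening 30 bases of both 60-base probes are shown to tell them apart, the former at chr4:144812866-144813439 and the latter at chr4:144804304-144804363, on the minus strand of mm9.
Tnfrsf1b brighter probe: ctggtgaactgcttcatcctggtgcagagg
Tnfrsf1b other probe: gcaattgcactgtgtgctggacagaattcc
The coordinates of the former span more genome than its 60 bases, and the exons hit were not determined here.

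**Figure D2:**
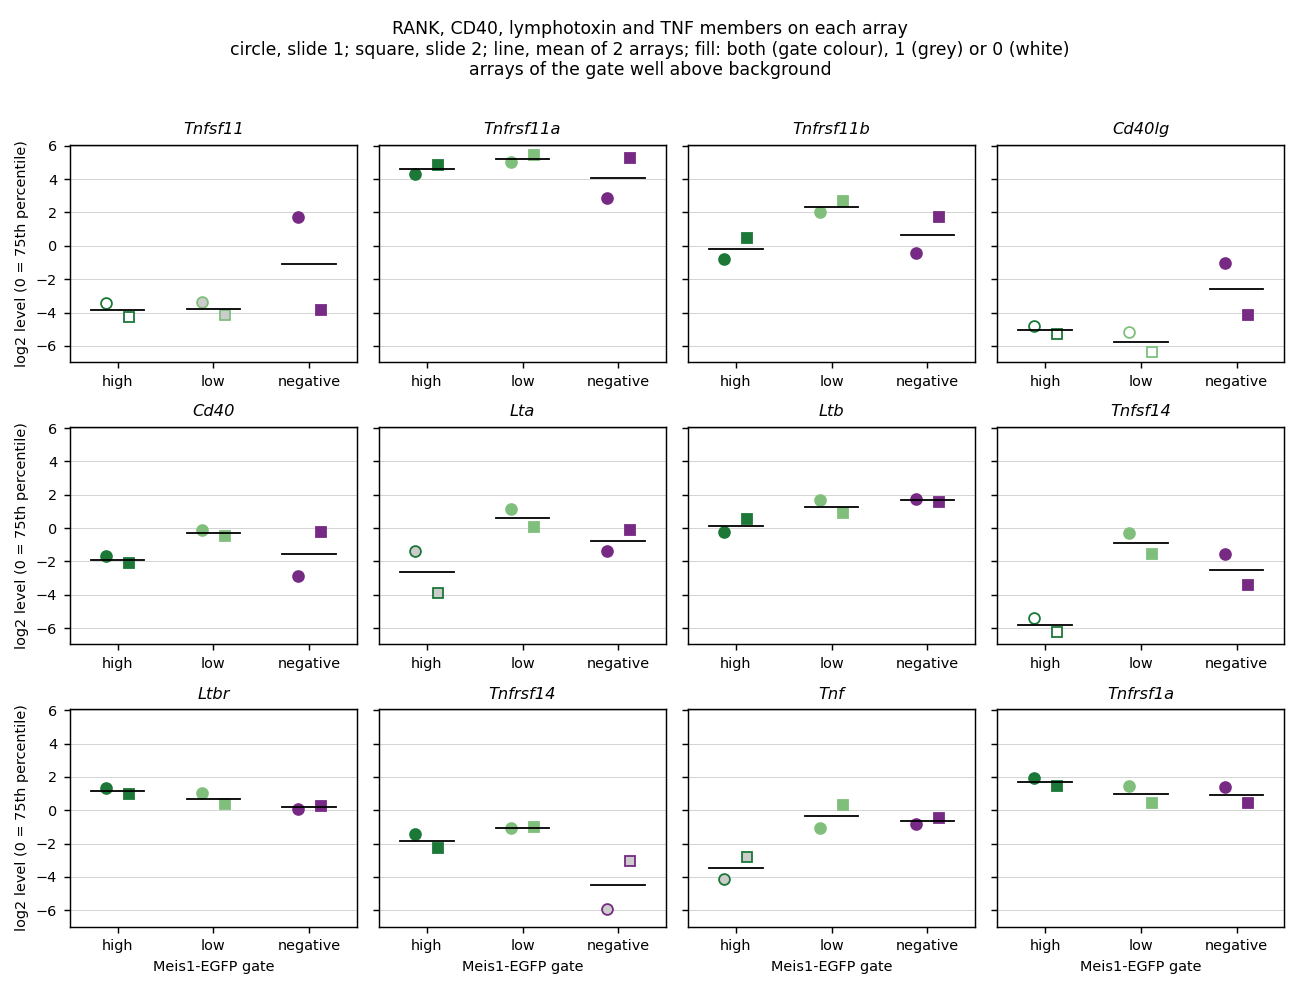
Log2 level (y axis, 0 is the array's 75th percentile) of 12 RANK, CD40, lymphotoxin and TNF members by gate (x axis); a circle is the array on slide 1, a square the one on slide 2, the line their mean, and the fill tells whether 2, 1 or 0 arrays of the gate were well above background. Tnfsf14 sits at -5.42 and -6.24 in Meis1-high, and Tnfsf11 and Cd40lg are highest on Meis1-negative replicate 1.

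Some of these ligand genes are neighbours. The probes of Ltb, Tnf and Lta lie within 7.2 kb of chromosome 17 (mm9), inside the major histocompatibility complex, and Tnfsf9, Cd70 and Tnfsf14 lie within 82.7 kb elsewhere on that chromosome. In all, 22 of the 45 members lay in 9 such groups with gaps of at most 200 kb. In the latter group, Meis1-high minus Meis1-low was 0.64 ± 0.62 for Cd70, -2.31 ± 1.19 for Tnfsf9 and -4.91 ± 0.85 for Tnfsf14, and the spread among the 3 was not tested. Since the family both triggers NF-kB and holds NF-kB target genes, the 250 bases upstream of the RefSeq start (GRCm38.p6) were searched on both strands for GGGNNNTTCC, a loose NF-kB motif. It was found in 4.65% of all 32851 promoter windows. Of the 35 members with a window (39 windows) 4 held it, namely Ltb, Tnfrsf9, Tnfrsf25 and Eda2r. The tighter GGGANTTTCC, each match of which also matches the loose motif, was in 0.356% of windows and in Ltb alone among the members. The 3 neighbours on chromosome 17, Tnfsf14 and Tnfrsf9 are shown because they are among the members with the largest differences or carry the motif, which is in capitals. They are printed 5′ to 3′ along the gene.
Lta, chr17:35205352-35205601, minus strand: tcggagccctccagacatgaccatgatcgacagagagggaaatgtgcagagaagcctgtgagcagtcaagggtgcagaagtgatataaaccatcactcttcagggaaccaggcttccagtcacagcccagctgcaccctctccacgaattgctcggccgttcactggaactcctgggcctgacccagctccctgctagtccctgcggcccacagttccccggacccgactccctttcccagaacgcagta
Tnf, chr17:35202008-35202257, minus strand: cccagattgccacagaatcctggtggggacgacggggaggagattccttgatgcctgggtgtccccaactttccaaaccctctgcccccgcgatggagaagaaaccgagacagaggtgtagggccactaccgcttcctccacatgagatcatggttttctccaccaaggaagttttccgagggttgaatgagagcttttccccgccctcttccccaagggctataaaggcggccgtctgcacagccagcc
Ltb, chr17:35194257-35194506, plus strand: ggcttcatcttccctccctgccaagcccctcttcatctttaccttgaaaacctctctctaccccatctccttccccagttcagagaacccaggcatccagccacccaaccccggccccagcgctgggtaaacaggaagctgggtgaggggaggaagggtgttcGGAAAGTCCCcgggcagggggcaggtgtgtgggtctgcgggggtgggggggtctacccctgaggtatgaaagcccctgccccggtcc
Tnfsf14, chr17:57194182-57194431, minus strand: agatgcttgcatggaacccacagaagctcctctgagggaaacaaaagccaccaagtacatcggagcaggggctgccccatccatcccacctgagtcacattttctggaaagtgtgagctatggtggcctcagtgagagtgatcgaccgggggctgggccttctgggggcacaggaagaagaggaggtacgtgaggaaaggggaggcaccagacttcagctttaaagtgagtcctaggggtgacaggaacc
Tnfrsf9, chr4:150927749-150927998, plus strand: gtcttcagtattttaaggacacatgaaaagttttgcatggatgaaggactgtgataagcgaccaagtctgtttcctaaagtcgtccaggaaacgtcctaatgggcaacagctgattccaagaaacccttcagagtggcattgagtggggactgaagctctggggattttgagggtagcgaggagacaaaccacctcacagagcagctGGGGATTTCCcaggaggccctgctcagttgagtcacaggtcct
In Ltb the match runs from base -87 to -78 on the opposite strand, and in Tnfrsf9 from -43 to -34 on the strand of the gene, in 1 of its 2 windows. A match describes the letters and shows no bound factor.

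BAFF, the survival factor of B cells, signals through the BAFF receptor (Tnfrsf13c), BCMA (Tnfrsf17) and TACI (Tnfrsf13b), and the first of these and BCMA gave the largest differences of any receptors between Meis1-high and Meis1-low. Tnfrsf17 stood at -1.27 and -3.06 in the Meis1-high pair, 1.96 and 1.63 in the Meis1-low pair, and -1.18 and 0.21 in the Meis1-negative pair, well above background on all 6 arrays. Both Meis1-low arrays lay above the 4 others. Meis1-high differed from Meis1-low by -3.96 ± 0.83, a 15.6-fold lower level (limma adjusted p = 0.250), with -3.23 on slide 1 and -4.70 on slide 2. Meis1-low differed from Meis1-negative by 2.28 ± 0.83 (limma adjusted p = 0.608), and by 1.58 without Meis1-negative replicate 1. Tnfrsf13c stood at -2.60 and -0.71 for Meis1-high, 2.5 and 1.79 for Meis1-low and -0.68 and 2.29 for Meis1-negative. Meis1-high again lay under both Meis1-low arrays, and Meis1-negative was split between its 2 arrays. The difference was -3.80 ± 1.10, 13.9-fold (limma adjusted p = 0.267). With normexp background correction these 2 receptors were called by limma, with smaller differences of -2.18 (adjusted p = 0.0137) and -2.36 (adjusted p = 0.00576). That setting called 1.26% of all genes in this comparison. Beside them, the summed signal of 6 B cell markers was 1.59 and 0.733 times the 75th percentile in the Meis1-high pair, 2.54 and 1.61 in the Meis1-low pair, and 3.05 and 5.22 in the Meis1-negative pair. Of those, Cd79a, a chain of the B cell receptor complex, read -5.42 and -5.80 (Meis1-high), -6.55 and -5.42 (Meis1-low) and -3.11 and -1.33 (Meis1-negative), highest on Meis1-negative replicate 2. What B cell RNA contributed to the 2 receptors was not tested.

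TACI (Tnfrsf13b) had another order, at -2.20 and -4.70 in the Meis1-high pair, -2.52 and -2.94 in the Meis1-low pair, and 1.75 and -1.25 in the Meis1-negative pair. Meis1-negative was the high gate, most of all on replicate 1. Differences from it were -3.70 ± 1.18 for Meis1-high and -2.98 ± 1.18 for Meis1-low (limma adjusted p = 0.366 and 0.608), or -2.20 and -1.48 without replicate 1. BAFF itself (Tnfsf13b) was well above background on both arrays of Meis1-high and on 1 of each other gate, at -2.72 and -3.12 for Meis1-high, -4.99 and -2.90 for Meis1-low and -5.65 and -2.68 for Meis1-negative, with overlap in all 3 comparisons and differences of 1.24 or less. The probe that the files name Tnfsf12-Tnfsf13, now Tnfsfm13, reads a transcript that joins the TWEAK and APRIL genes, and whether it also reads APRIL was not tested. It gave -0.72 and -0.26 (Meis1-high), 1.34 and 0.76 (Meis1-low) and -3.10 and 0.18 (Meis1-negative). Meis1-negative replicate 1 was the lowest array, and Meis1-low lay above both other gates. Meis1-low differed from Meis1-negative by 2.51 ± 1.05 (limma adjusted p = 0.608) and by 0.87 without that array.

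Among the costimulatory pairs, 4-1BB (Tnfrsf9), known from activated T cells, was one of the members that Meis1-low held at the higher level. It read -0.47 and 0.08 in the Meis1-high pair, 2.31 and 2.18 in the Meis1-low pair, and -0.11 and 1.62 in the Meis1-negative pair. The Meis1-low arrays lay within 0.13 of each other and above the 4 others. The difference of Meis1-high was -2.43 ± 0.75, 5.41-fold lower (limma adjusted p = 0.283), with -2.78 on slide 1 and -2.09 on slide 2, and a second tested probe gave -3.25. Its ligand (Tnfsf9) read -5.5 and -4.20 for Meis1-high, -3.07 and -2.0 for Meis1-low and -5.97 and -2.33 for Meis1-negative and was not well above background in Meis1-high. Its difference was -2.31 ± 1.19 (limma adjusted p = 0.473), at least 2.12-fold lower. Over all alternative settings this ran from -2.96 to -0.36, so the bound holds for the main setting only. CD30 (Tnfrsf8) ran -2.26 and -0.72 (Meis1-high), 0.94 and 0.29 (Meis1-low) and -1.37 and -0.81 (Meis1-negative). Meis1-low was again the high gate, and Meis1-high differed from it by -2.10 ± 0.74 (limma adjusted p = 0.313). OX40 (Tnfrsf4) read -0.11 and -1.0 in the Meis1-high pair, 0.25 and 0.63 in the Meis1-low pair, and -1.04 and 0.83 in the Meis1-negative pair, with a difference of -0.99 ± 0.80 between Meis1-high and Meis1-low (limma adjusted p = 0.648).

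The costimulatory receptors CD27 (Cd27), found on T cells and B cells, and GITR (Tnfrsf18), found on regulatory T cells, were highest in Meis1-negative. Cd27 stood at -3.83 and -2.36 for Meis1-high, -4.08 and -2.86 for Meis1-low and 2.11 and -2.0 for Meis1-negative. Meis1-negative replicate 1, at 2.11, stood far above the other 5 arrays. Differences from Meis1-negative were -3.15 ± 1.32 for Meis1-high and -3.53 ± 1.32 for Meis1-low (limma adjusted p = 0.466 and 0.608), and -1.10 and -1.47 without that array. Tnfrsf18 read -0.93 and 0.65 (Meis1-high), -0.75 and 0.15 (Meis1-low) and 2.97 and 1.74 (Meis1-negative). Here both Meis1-negative arrays lay above the 4 others. The differences were -2.49 ± 0.81 and -2.65 ± 0.81 (limma adjusted p = 0.378 and 0.606), and -1.88 and -2.04 without replicate 1. With normexp background correction limma called Tnfrsf18 in both comparisons, at adjusted p = 0.0341 and 0.0159, beside 1.67% and 0.67% of all genes. The ligand of CD27 (Cd70) lay within a narrow range, at -1.10 and -1.43 in the Meis1-high pair, -2.25 and -1.56 in the Meis1-low pair, and -1.80 and -1.28 in the Meis1-negative pair, and its difference between Meis1-high and Meis1-low was 0.64 ± 0.62 (limma adjusted p = 0.714).

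**Figure D3:**
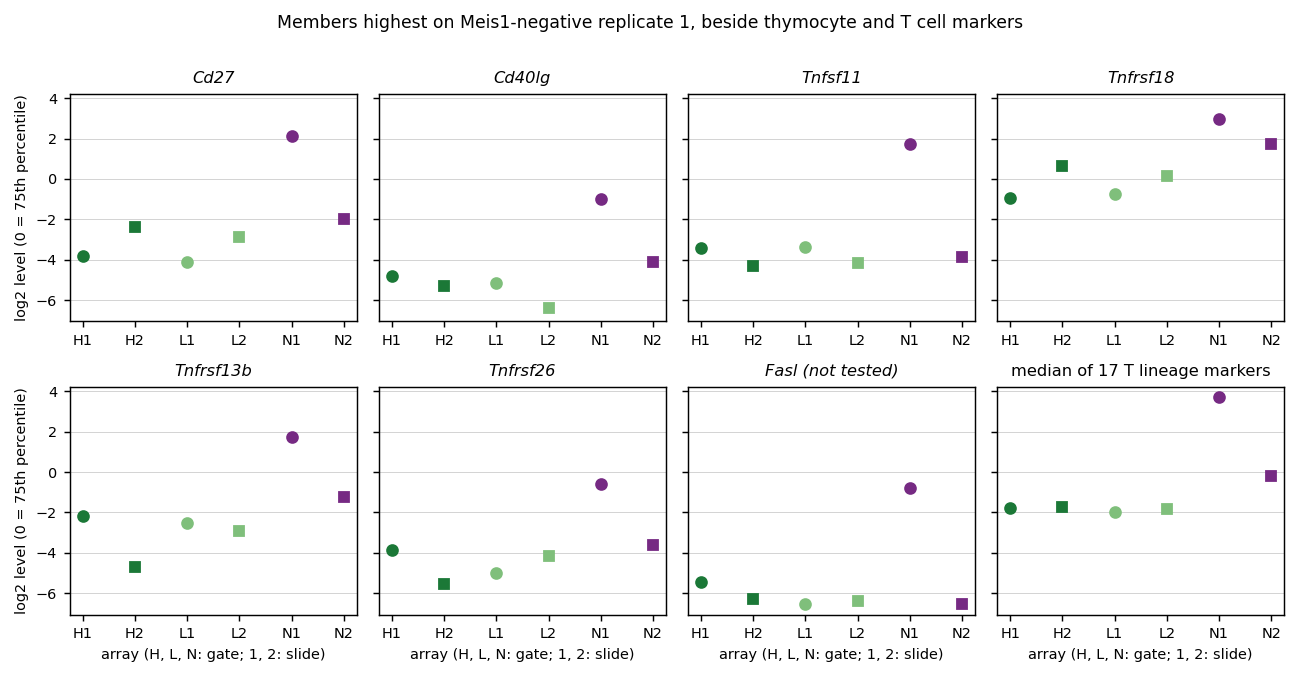
Log2 level (y axis) on each of the 6 arrays (x axis; H, L and N are Meis1-high, Meis1-low and Meis1-negative, 1 and 2 the slides) of 7 members and, in the last panel, the median of 17 thymocyte and T cell markers. The 7 were chosen after their values were seen, for being highest on Meis1-negative replicate 1, where the marker median was 3.72 against -1.98 to -0.19 on the other arrays.

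The members known from lymphocytes were thus read beside the lymphocyte markers. All 17 thymocyte and T cell markers were well above background on Meis1-negative replicate 1, and 12 to 15 on each other array. The defining ones included Cd3e at 0.52 and -0.27 for Meis1-high, -1.98 and -1.64 for Meis1-low and 6.82 and 1.12 for Meis1-negative. Dntt was the highest on replicate 1, at 9.55 against 3.17 on replicate 2. Not all 17 went this way, for Cd4 at -2.57 and -1.78 and Cd2 at -1.20 and -0.09 were higher on replicate 2. Fas ligand (Fasl), a killing ligand of cytotoxic lymphocytes, was well above background on Meis1-negative replicate 1 alone, at -0.81 on 1 of its 2 probes against -6.54 to -5.43 on the other arrays, and was not tested. Its other probe read -1.91 on that array, against -6.37 to -3.30 on the others. Tnfrsf26 read -3.87 and -5.54 (Meis1-high), -4.97 and -4.16 (Meis1-low) and -0.59 and -3.62 (Meis1-negative), well above background in Meis1-negative alone, and differed by -2.59 ± 1.09 for Meis1-high (limma adjusted p = 0.467; -1.08 without replicate 1). The part that thymocyte or other leukocyte RNA plays in these values was not tested.

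For all members, Meis1-high against Meis1-negative gave 19 higher and 22 lower means with a median of -0.24, beside -0.10 over all genes. Gates without overlap numbered 8 higher (19.5%, against 19.3% of all genes) and 10 lower (24.4%, against 19.9%), both near the background. An unadjusted p under 0.05 was reached by 1 in the higher direction (2.44%, against 5.71%) and 8 in the lower (19.5%, against 4.83%). The members' median turned with the slide, from 0.48 on slide 1 to -0.43 on slide 2, and was -0.68 without Meis1-negative replicate 1. Meis1-low against Meis1-negative gave 28 higher and 13 lower with a median of 0.76, beside 0.05. Without overlap were 17 higher (41.5%, against 23.4%) and 6 lower (14.6%, against 15.8%), and 4 in each direction had an unadjusted p under 0.05 (9.76%, against 5.02% higher and 3.06% lower). That median was 1.47 on slide 1 and 0.04 on slide 2, and 0.10 without Meis1-negative replicate 1. Leaving out Meis1-negative replicate 2, so that replicate 1 alone stood for the gate, called 5 members against Meis1-high (Cd27, Cd40lg, Tnfsf11, Tnfsf14 and Tnfrsf14) and 5 against Meis1-low (Cd27, Cd40lg, Tnfsf11, Tnfrsf14 and Tnfsfm13), while leaving out replicate 1 called 0. The former are 12.2% of the tested members in each comparison, where the same setting called 951 and 1269 of the 18221 genes, or 5.22% and 6.96%. These comparisons share arrays with each other and are not independent.

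**Figure D4:**
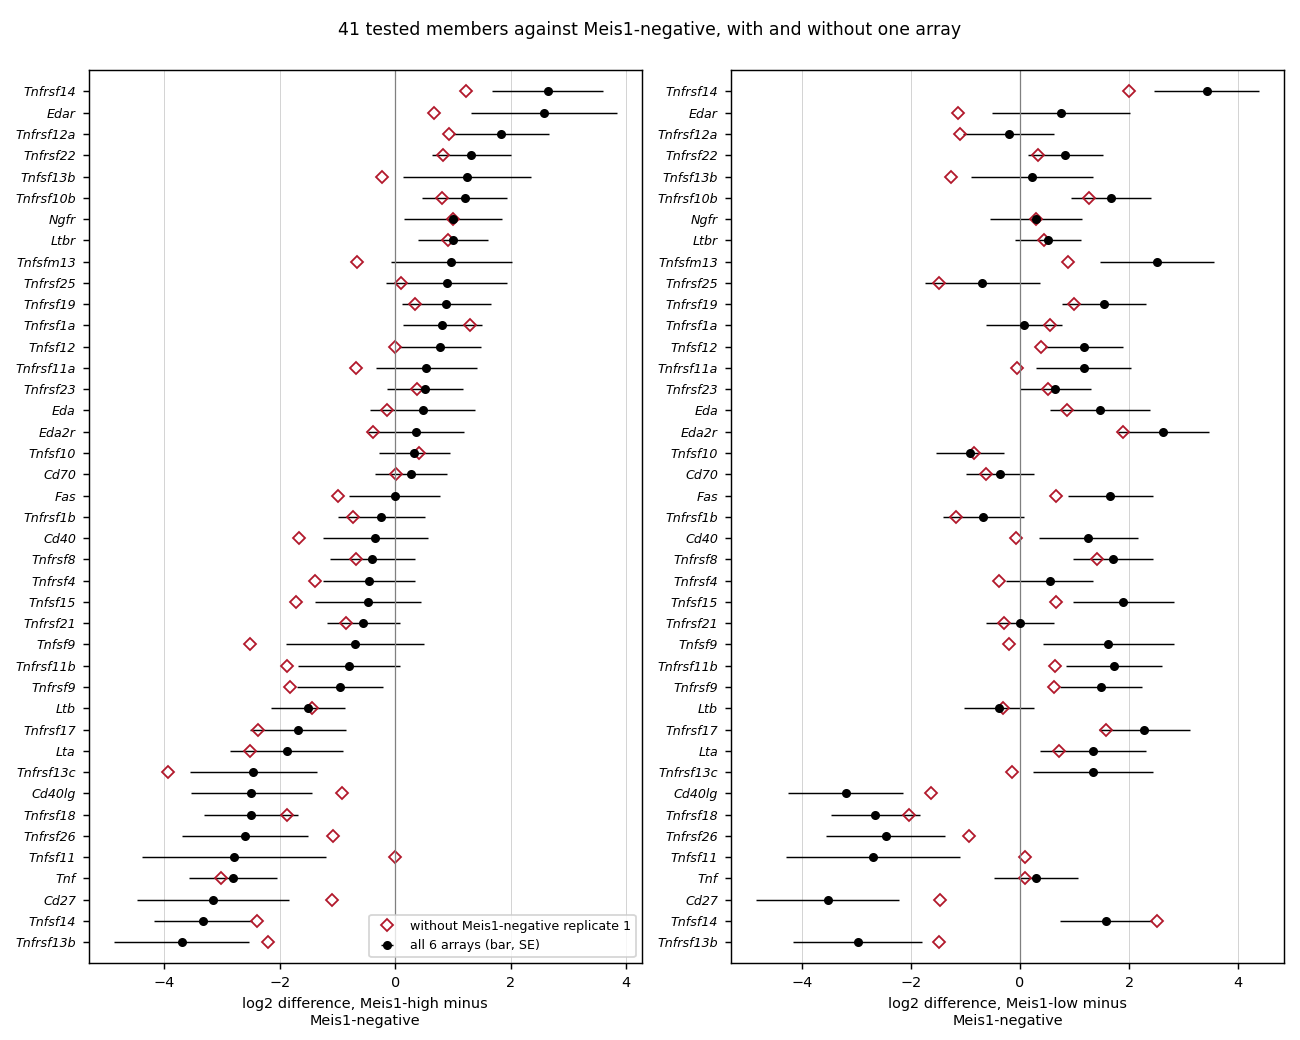
Difference in log2 level from Meis1-negative for the 41 tested members, Meis1-high on the left and Meis1-low on the right (x axes), with the standard error as a bar and, as open diamonds, the value without Meis1-negative replicate 1; members on the y axis follow the order of the left panel. For Tnfsf11 the left value moves from -2.79 to near 0 and for Cd27 from -3.15 to -1.10.

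Of the members that signal death, Fas was well above background on every array and highest in Meis1-low. Fas stood at 1.56 and 1.87 in the Meis1-high pair, 3.57 and 3.19 in the Meis1-low pair, and 0.74 and 2.71 in the Meis1-negative pair. Both Meis1-low arrays lay above the 4 others, and Meis1-high differed by -1.67 ± 0.78, 3.17-fold lower (limma adjusted p = 0.428), with -2.0 on a second probe. TRAIL (Tnfsf10), a ligand that can kill through Tnfrsf10b, went the other way, at -2.36 and -1.55 for Meis1-high, -3.05 and -3.36 for Meis1-low and -2.20 and -2.37 for Meis1-negative. Meis1-high lay above Meis1-low without overlap, by 1.25 ± 0.62 (limma adjusted p = 0.451), but by 0.12 with normexp background correction. Its receptor Tnfrsf10b read 1.80 and 0.31 (Meis1-high), 1.77 and 1.26 (Meis1-low) and -0.56 and 0.25 (Meis1-negative), and on this probe both reporter-positive gates lay above Meis1-negative, by 1.21 ± 0.74 and 1.67 ± 0.74 (limma adjusted p = 0.625 and 0.608), or 0.80 and 1.26 without Meis1-negative replicate 1. The other 2 tested probes did not share this for Meis1-high, at -0.02 and -0.64 with overlap, and gave 1.19 and 0.99 for Meis1-low. Between Meis1-high and Meis1-low the first probe overlapped, at -0.46 ± 0.74 (limma adjusted p = 0.831). The other 2 lay lower in Meis1-high without overlap, at -1.21 and -1.63. Tnfrsf22, a decoy receptor of TRAIL, read -0.04 and -0.09 in the Meis1-high pair, -0.03 and -1.08 in the Meis1-low pair, and -1.88 and -0.89 in the Meis1-negative pair. Meis1-high exceeded Meis1-negative by 1.32 ± 0.69 (limma adjusted p = 0.568), and by 0.82 without replicate 1. The other TRAIL decoy, Tnfrsf23, was well above background on both arrays of Meis1-low alone. It read -3.17 and -4.31 for Meis1-high, -3.5 and -3.71 for Meis1-low and -4.39 and -4.12 for Meis1-negative, and its largest difference was 0.65 ± 0.65, for Meis1-low minus Meis1-negative (0.51 without replicate 1). Death receptor 6 (Tnfrsf21) stood at -1.0 and -0.24 (Meis1-high), -0.04 and -0.11 (Meis1-low) and -0.37 and 0.22 (Meis1-negative), with differences of -0.55 or smaller in size. Meis1-high minus Meis1-negative was -0.85 without replicate 1. A second tested probe gave -0.96 for that comparison on all arrays, and its gates did not overlap in any comparison.

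TL1A (Tnfsf15), a ligand that costimulates T cells, read -5.09 and -4.06 in the Meis1-high pair, -1.87 and -2.55 in the Meis1-low pair, and -5.34 and -2.86 in the Meis1-negative pair and was not well above background in Meis1-high. It differed from Meis1-low by -2.36 ± 0.92 (limma adjusted p = 0.354), at least 2.66-fold lower. Over all alternative settings that difference ran from -2.88 to -0.52, so the bound holds for the main setting only. Its receptor DR3 (Tnfrsf25) read -1.39 and -1.57 for Meis1-high, -4.55 and -1.58 for Meis1-low and -3.17 and -1.58 for Meis1-negative. The difference of 1.58 ± 1.05 (limma adjusted p = 0.580) lay on slide 1, at 3.15 on slide 1 and 0.01 on slide 2, and Meis1-low replicate 1 was the dim array. A second tested probe gave 0.43 with overlap, at -2.17 on slide 1 and 3.04 on slide 2.

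Members of the ectodysplasin and TWEAK branches, known from hair, tooth and gland formation and from tissue repair, included the 2 largest differences in favour of Meis1-high over Meis1-low. Fn14 (Tnfrsf12a), the receptor of TWEAK, stood at 1.69 and 2.15 (Meis1-high), -0.81 and 0.56 (Meis1-low) and -0.82 and 0.98 (Meis1-negative). Both Meis1-high arrays lay above the 4 others. The difference was 2.04 ± 0.83 from Meis1-low, 4.11-fold, with 2.5 on slide 1 and 1.58 on slide 2, and 1.83 ± 0.83 from Meis1-negative (limma adjusted p = 0.371 and 0.50), the latter 0.93 without Meis1-negative replicate 1. TWEAK (Tnfsf12) itself read -1.09 and -1.41 in the Meis1-high pair, -0.84 and -0.89 in the Meis1-low pair, and -2.82 and -1.25 in the Meis1-negative pair, and differed between Meis1-high and Meis1-low by -0.39 ± 0.71. Edar, the receptor of the ectodysplasin isoform A1, read -2.21 and -0.66 for Meis1-high, -3.90 and -2.62 for Meis1-low and -5.92 and -2.11 for Meis1-negative. Meis1-high lay above Meis1-low on both slides, by 1.83 ± 1.26 (limma adjusted p = 0.593), but by 0.45 with normexp background correction. Eda2r, the receptor of the isoform A2, ran the opposite way, at -1.85 and -3.20 (Meis1-high), 0.32 and -0.83 (Meis1-low) and -3.62 and -2.14 (Meis1-negative). Meis1-low exceeded both other gates, by 2.62 against Meis1-negative (1.88 without replicate 1), and Meis1-high differed from it by -2.26 ± 0.83 with -2.17 on slide 1 and -2.36 on slide 2 (limma adjusted p = 0.608 and 0.329). Ectodysplasin itself (Eda), well above background on both arrays of Meis1-low alone, read -5.40 and -3.32 in the Meis1-high pair, -2.76 and -3.99 in the Meis1-low pair, and -5.44 and -4.22 in the Meis1-negative pair and overlapped between Meis1-high and Meis1-low. TROY (Tnfrsf19), an orphan receptor of epithelial progenitors, read -3.34 and -1.94 for Meis1-high, -1.57 and -2.42 for Meis1-low and -4.07 and -2.98 for Meis1-negative, with overlap between Meis1-high and Meis1-low. The neurotrophin receptor p75 (Ngfr) read 2.18 and 1.91 (Meis1-high), 2.51 and 0.16 (Meis1-low) and 1.04 and 1.05 (Meis1-negative), and its slides disagreed, with -0.34 on slide 1 and 1.75 on slide 2 for Meis1-high minus Meis1-low. Whether Edar and Eda2r differed from each other was not tested.

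**Figure D5:**
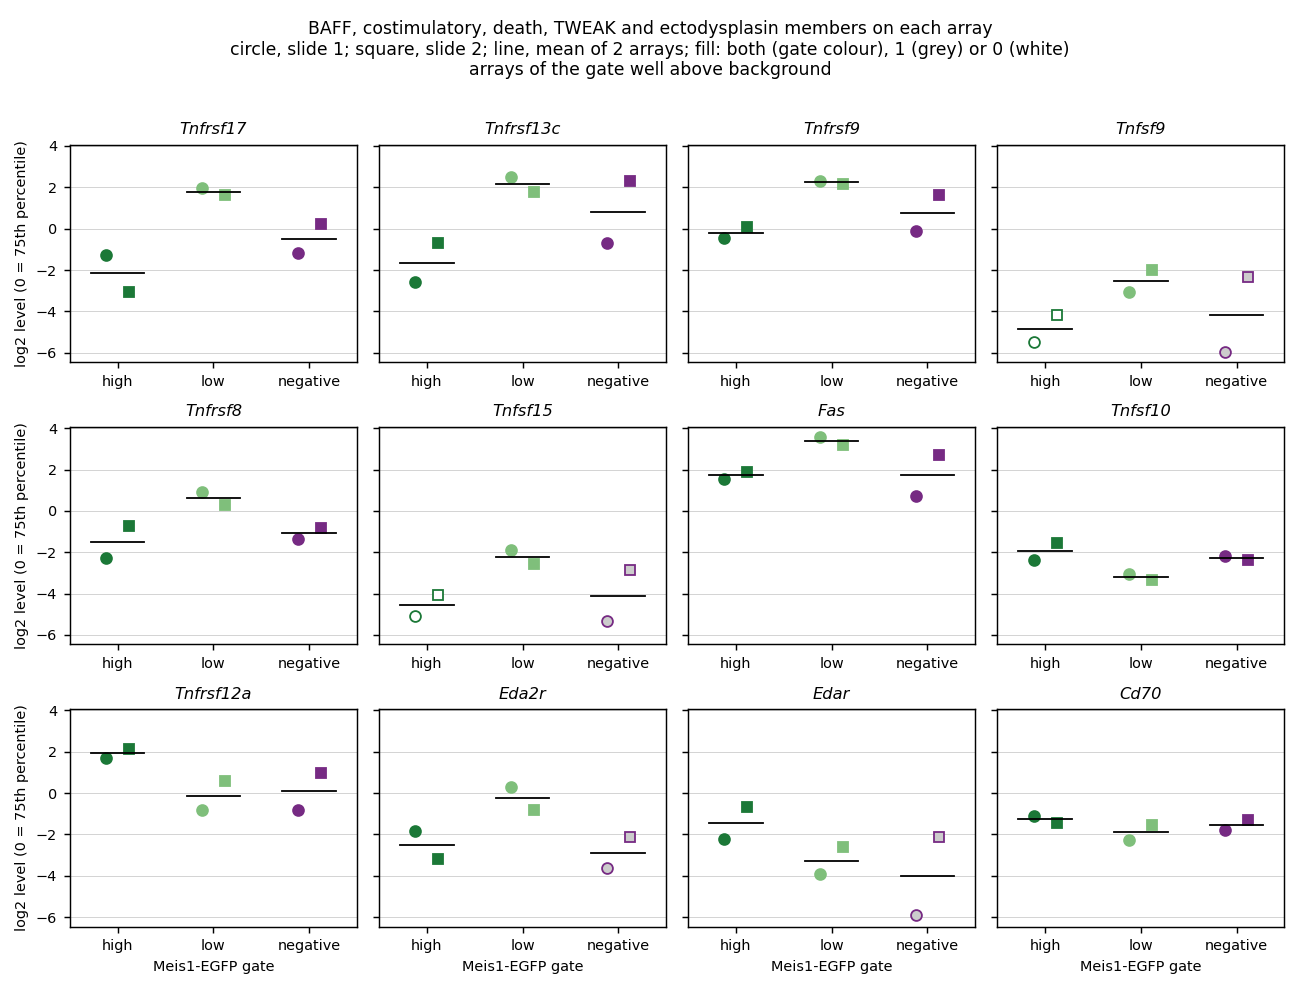
Log2 level (y axis, 0 is the array's 75th percentile) of 12 BAFF, costimulatory, death, TWEAK and ectodysplasin members by gate (x axis), with circles for slide 1, squares for slide 2, a line for their mean and the fill telling whether 2, 1 or 0 arrays of the gate were well above background. Tnfrsf17, Tnfrsf13c, Tnfrsf9, Tnfrsf8, Fas and Eda2r are higher on both Meis1-low arrays than on both Meis1-high arrays, and Tnfrsf12a, Edar and Tnfsf10 lower.

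Beside the members that stood higher in Meis1-low, markers of other cell types and of TEC subsets were read on the same arrays. The summed signal of 12 dendritic cell and macrophage markers was 14.5 and 13.0 times the 75th percentile in the Meis1-high pair, 43.3 and 42.3 in the Meis1-low pair, and 7.08 and 35.8 in the Meis1-negative pair. Of the 12, 6 lay lower in Meis1-high than in Meis1-low without overlap, 1 higher (Xcr1, by 0.81 ± 0.64) and the other 5 overlapped, among them C1qb at -0.03 ± 0.77 and Cd68 at -0.33 ± 0.90. The lower ones included Itgax at -5.10 and -4.63 in the Meis1-high pair, -2.86 and -3.5 in the Meis1-low pair, and -3.30 and 0.90 in the Meis1-negative pair and Lyz2 at 3.01 and 2.95 for Meis1-high, 4.82 and 4.76 for Meis1-low and 2.22 and 4.52 for Meis1-negative. The sum of 8 mature medullary TEC markers, 472 and 209 for Meis1-high, 544 and 380 for Meis1-low and 151 and 390 for Meis1-negative, overlapped between the gates. All 8 nonetheless had the lower mean in Meis1-high than in Meis1-low, with a median of -2.28, and 5 lay lower without overlap, namely Aire at -2.32 ± 1.0, Ccl22 at -4.26 ± 1.71, Cd80 at -2.25 ± 1.17, Cd86 at -4.83 ± 1.80 and Hdc at -2.39 ± 0.74. The sum of 7 cortical TEC markers was 116 and 159, 50.2 and 28.6, and 21.2 and 52.0 in the same order, with 5 of the 7 higher in Meis1-high than in Meis1-low without overlap. Their part in the members' values was not tested.

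The remaining 4 members could not be tested. Fasl was well above background on 1 of 6 arrays, Tnfsf18 (GITR ligand) on 1, Tnfsf4 (OX40 ligand) on 1 and Tnfsf8 (CD30 ligand) on 0. Of the 9 members with more than 1 tested probe, the probes shared the sign of the difference in 6 between Meis1-high and Meis1-low, and in 8 in each of the other comparisons.

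Downstream of the receptors, 47 genes of the pathway (adaptors, death domain proteins, NF-kB kinases, subunits and inhibitors, and outputs in medullary TEC) were all measured, and 0 were called in any comparison. In Meis1-high 37 had a lower mean than in Meis1-low and 10 a higher, with a median of -0.62 beside -0.15 over all genes. Gates did not overlap in 27 lower and 5 higher (beside 31% and 22.7% of all genes), or 57.4% and 10.6% of the list. An unadjusted p under 0.05 was reached by 4 and 1 (8.51% and 2.13%, beside 8.25% and 4.69% of all genes). Each of the 6 sublists had a median under 0, from -0.82 in the 11 outputs to -0.47 in the 5 subunits. The lowest were the costimulatory ligand Cd86 at -4.83 ± 1.80, the necroptosis kinase Ripk3 at -2.57 ± 0.85 and the chemokine Ccl20 at -2.57 ± 0.87 (limma adjusted p = 0.333, 0.293 and 0.304). The highest were Ccl21a, a chemokine that draws T cells into the medulla and has near-identical gene copies, at 3.34 ± 0.78, Nfkb1 at 1.5 ± 1.0 and Traf5 at 0.73 ± 1.14 (limma adjusted p = 0.253, 0.583 and 0.827). Nfkb1 rested on Meis1-low replicate 1, at -2.55 against 0.48 to 0.70 on the other 5 arrays. Cd86 is in the mature medullary list too, and is also a dendritic cell gene.

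Against Meis1-negative the same list gave 21 higher and 26 lower for Meis1-high (median -0.08) and 34 higher and 13 lower for Meis1-low (median 0.37). Without Meis1-negative replicate 1 the medians were -0.57 and 0.10. For Meis1-high the lowest were Ripk3 at -3.37 ± 0.85, Cd86 at -3.23 ± 1.80 and the adaptor Traf1 at -2.24 ± 0.93. Without Meis1-negative replicate 1 they were -2.47, -6.37 and -3.57. The highest were Ccl21a at 2.82 ± 0.78, Traf5 at 1.68 ± 1.14 and the NF-kB regulator Bcl3 at 1.14 ± 0.81, which became 1.92, -0.14 and 0.07, so that Traf5 changed sign. For Meis1-low the lowest were Nfkb1 at -1.58 ± 1.0, the NF-kB inhibitor Tnfaip3 at -1.37 ± 0.65 and the TNFR1 adaptor Tradd at -0.86 ± 0.77, or -1.67, -1.14 and 0.0016 without that array. The highest were Ccl20 at 2.38 ± 0.87, Cd80 at 2.15 ± 1.17 and the ubiquitin ligase Birc3 at 1.78 ± 1.10, or 1.41, 0.20 and 0.22 without it. The smallest limma adjusted p of the list was 0.307 and 0.608 in these comparisons.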

How the data were processed

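Per the labels, RNA of 6 TEC samples was amplified and hybridised to 1-colour Agilent arrays. The deposited intensity, read with Agilent Feature Extraction 9.5.3.1 per the file headers, is background-subtracted and detrended within the array and not scaled between arrays; probe positions are on mm9. The authors' deposited log2 value table, centred per probe (how it was scaled is not given in the sources used here), follows the centred scanner levels with a slope of 1.0 and a correlation of 0.9999, and was an alternative. Its column medians ran from -0.17 to 0.15.

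Control and outlier spots were left out, spots of a probe averaged, and each array's 75th percentile over 43379 non-control spots subtracted after log2. Low signals can be software surrogates (15.5% to 28.2% of spots). Of the probes, 26682 took their symbol from a RefSeq accession, 96 from another accession of the file, 5129 kept a current symbol, 933 matched an older one and 8334 stayed as named. A probe was tested where both arrays of some gate were well above background (26590 probes), and the probe with the highest mean stood for a gene. The fit was limma 3.58.1 in R 4.3.3 over all 6 arrays, 1 mean a gate, 3 residual and 4.33 prior degrees of freedom, with a Benjamini-Hochberg threshold of 0.05. The script was tested on simulated data. Bounds and precision are limited by 2 arrays a gate.

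The members and lists were chosen with earlier results of these data known. Every tested member is described. The value on every array is given for the 25 fixed members, apart from Fasl, which was not tested and is given as a range. It is also given for the 4 highest and 4 lowest non-overlapping differences per comparison, and for some more chosen after their values were seen. The 3 highest and lowest pathway genes are named. Replicate numbers pair the arrays by slide, per the file headers, and deviations from the gate means correlated at 0.21, 0.13 and 0.13. Alternatives were normexp (offset 50), quantile and median scaling, filters, a floor, the mean of probes, a looser threshold, the replicate block and leaving out each array. Figures used Python 3.11.15, pandas 2.3.3 and matplotlib 3.10.9.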

Additional observations from a re-analysis of the deposited data

How the results depend on the processing

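The 24 gene-comparisons named by rule kept their sign under every alternative run, with 383 of these values on the same side of the threshold and 10 past it, but not their size. Normexp made 19 of the 24 smaller by over 1.5 times, and leaving out Meis1-negative replicate 1 did so for 11. With normexp background correction 230 genes were called for Meis1-high against Meis1-low, and against Meis1-negative 304 for Meis1-high and 122 for Meis1-low. Among the members it called 2, 1 and 1 (Tnfrsf17 and Tnfrsf13c, then Tnfrsf18 at adjusted p = 0.0341 and 0.0159), and the first median became -0.32. Median scaling called 74 genes for Meis1-high and 13 for Meis1-low against Meis1-negative, shifting the median of all genes from -0.10 to -0.20 in the former. A floor called 21 and a filter on all 6 arrays, added after seeing the data, 6 between Meis1-high and Meis1-negative, and a threshold of 0.10 called 3 between Meis1-low and Meis1-negative; none was a member. The causes were not tested.

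The replicate block called 0 members and 0 genes in each comparison and changed no call. Leaving out 1 array at a time gave 0 to 951 genes and 0 to 5 members between Meis1-high and Meis1-negative, with member medians of -0.68 to 0.54, and 0 to 1269 genes and 0 to 5 members between Meis1-low and Meis1-negative; all calls came without Meis1-negative replicate 2, when the lone array was assumed to vary like the other gates. Between Meis1-high and Meis1-low it called 0 genes, and the member median stayed between -0.71 and -0.51. With 2 arrays a gate and 18 of 41 members not well above background on every array, small differences were not detectable at this signal.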
